A study of Mus musculus with 4 samples.

Results

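Among the genes of mouse colonoids, 46 were lower in butyrate-treated than in untreated cultures at 48 h and higher at 72 h. These 46 genes were chosen by their fold changes at both times, out of 36144 gene names in the count table. A gene entered the group when its mean over the 4 libraries was at least 2 CPM, that is counts scaled to the library total, its log2 fold change of butyrate over untreated was −0.5 or less at 48 h and it was 0.5 or more at 72 h, with 0.05 CPM added to each value. Of the 36144 names, 11771 reached 2 CPM, and the 46 members were 0.391% of them. The fold changes of the members at the 2 times are thus a description of how they were chosen and carry no test.

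Colonoids are cultures of the colonic epithelium, in which crypt stem cells and their progeny grow in a gel of basement membrane. All 4 libraries came from colonic organoids of male mouse origin, aged 24 weeks, given as WT in the labels, whereas the paper that describes the experiment names a Hes1-GFP line. Every culture received the same medium, with EGF, Noggin, R-spondin, the GSK3 inhibitor CHIR99021 and the kinase inhibitor Y-27632. Untreated colonoids and colonoids given 2 mM sodium butyrate were taken at day 2 (48 h) and day 3 (72 h), and were loosened with a dissociation enzyme before lysis. There was 1 library for each of the 4 conditions, so no difference below can be set against replicate error, and a library cannot be told apart from its condition. Poly-A RNA was sequenced, and total counts were between 20790225 and 24207840. Intervals given in brackets are exact 95% intervals on a pair of counts and cover counting error only. Epithelial lists were abundant in every library, with a summed colonocyte level of 3900 to 6980 CPM, whereas the summed level of 14 fibroblast and mural cell genes was 9.09 to 11.1 CPM, with *Col3a1*, *Lum* and *Foxl1* at 0 in all 4, and that of 7 endothelial genes was 5.66 to 9.46 CPM. That of 10 immune cell genes was 33.4 to 65.1 CPM, of which *Cd68* and *Cd14* alone reached a mean of 2 CPM over the libraries. *Cd68*, a lysosomal protein, was at 5.93, 54.1, 7.29 and 20.2 CPM in untreated and butyrate colonoids at 48 h and then at 72 h, and *Cd14*, a receptor for bacterial lipopolysaccharide, at 24.8, 9.13, 24.6 and 13.8 CPM, while *Adgre1* was at 0.

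Butyrate is a short-chain fatty acid made by gut bacteria that serves colonocytes as fuel and inhibits histone deacetylases. The members include parts of several systems that act in crypts. *Fos* and *Fosb* encode subunits of the AP-1 transcription factor and belong to the immediate early genes, which growth factor and stress signals switch on for a short time. *Lgr5* encodes a receptor for R-spondins, which strengthens Wnt signalling and marks crypt stem cells, and *Smo* encodes the membrane protein that passes on the Hedgehog signal.

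Most members were of low abundance. Their median of the mean level was 5.39 CPM, against 32.1 CPM over all 11771 genes, and 14 members (30.4%) reached a mean of 10 CPM, as 79.9% of all genes did. Per kb of the longest annotated transcript, the median level was 2.18 CPM per kb for members and 9.49 for all genes. *Lgr5* stood highest per kb, with a mean of 58.7 CPM per kb, followed by *Fos* with 38.5, *Smo* with 10.7 and the pseudogene *Gm4459* with 10.4. *Lgr5* and *Fos* together held 48.2% of the members' summed mean level in CPM. At 48 h, 8.93% of the genes tested lay at −0.5 or less, and at 72 h 9.29% lay at 0.5 or more. For 42 of the 46 members both counting intervals lay beyond 0 on the side of the rule, which held for 8.27% of all genes with no threshold on size. The exceptions were *Cited1*, *Cybrd1*, *Gm7331* and *Olfr152*. The members were chosen on these same counts, so their share is largely set by the rule and carries no test. Both intervals lay wholly beyond the thresholds of −0.5 and 0.5 in 10 members, which were *Fosb*, *Fos*, *Ccn1*, *Lgr5*, *Gpc2*, *Pou6f1*, *Vsig2*, *Clps*, *Gm14440* and *Pgk1-rs7*.

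**Figure D1:**
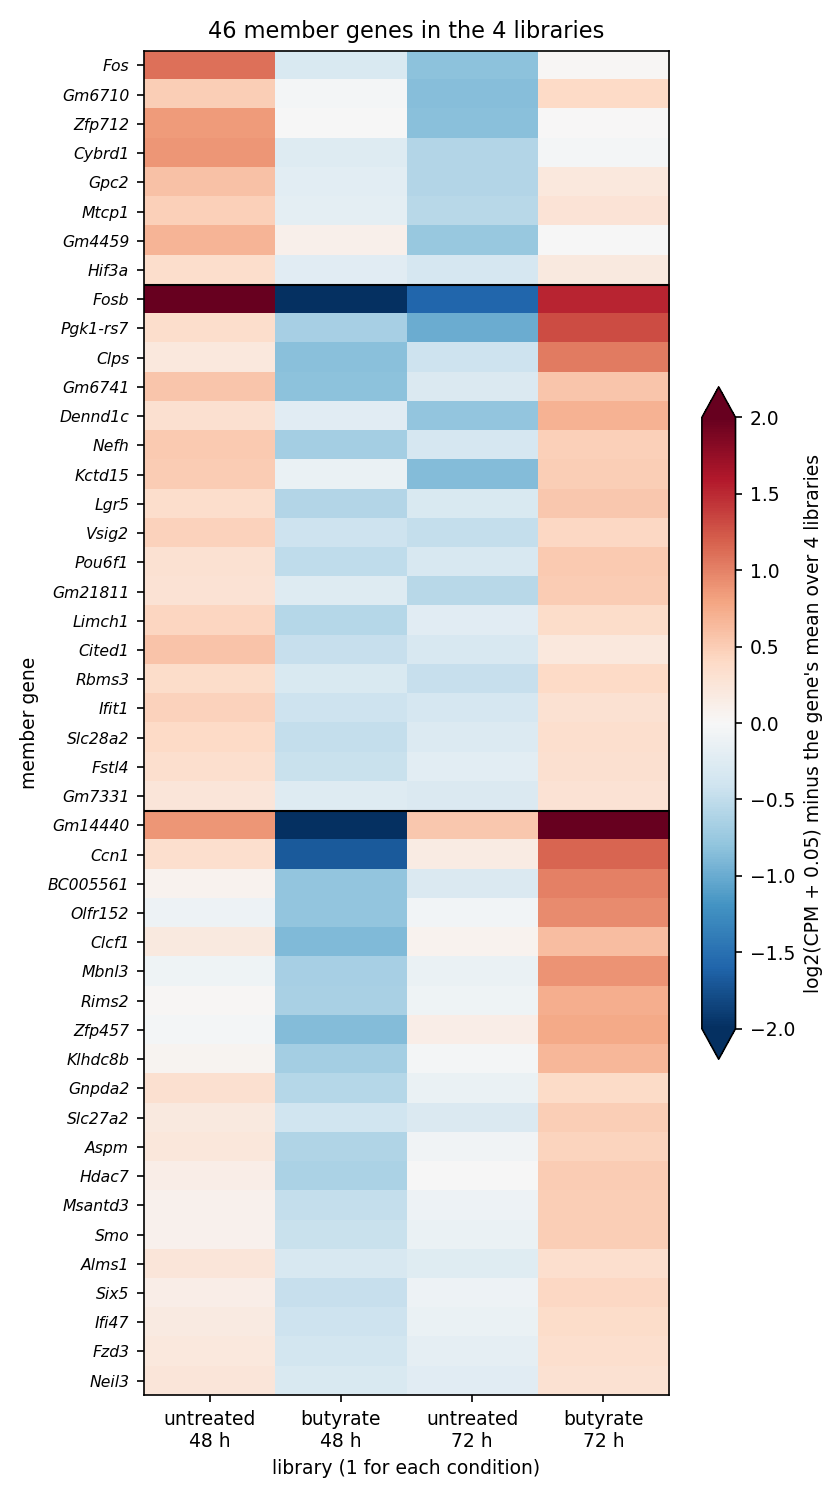
Level of the 46 members (rows) in the 4 libraries (columns), as log2(CPM + 0.05) minus the gene's mean over the 4 libraries, with colours saturated at −2 and 2. Black lines separate members by whether the change from 48 h to 72 h reached 0.5 on the log2 scale. At the top are 8 that were lower by that amount in untreated colonoids alone, in the middle 18 that were also higher by it in butyrate colonoids, and at the bottom 20 that reached it in butyrate colonoids alone. *Fosb* and *Gm14440* have the strongest contrasts.

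The members span the thresholds from values at the edge to large differences. The median log2 fold change over members was −0.78 at 48 h (quartiles −0.98 and −0.58) and 0.79 at 72 h (quartiles 0.55 and 0.97), beside medians of −0.02 and 0.05 over all genes tested. At 48 h 11 members differed by 2-fold or more, at 72 h 11 did, and 4 did at both times, namely *Fosb*, *Gm14440*, *Clps* and *Pgk1-rs7*. *Ccn1* lay close to that limit at 72 h. The members closest to the thresholds were *Gm7331* (log2 −0.503 and 0.583), *Ifi47* (−0.592 and 0.504) and *Fzd3* (−0.579 and 0.508). Just outside lay *Gm49327* (−0.498 and 0.632), *Msrb2* (−0.497 and 0.633) and *Cep152* (−0.494 and 0.496), so that the border of the group separates genes with nearly equal values. Under each of 3 other scalings of the libraries 11 members left the group, which were *Aspm*, *Cited1*, *Clcf1*, *Fstl4*, *Fzd3*, *Gnpda2*, *Hdac7*, *Hif3a*, *Ifi47*, *Neil3* and *Six5*, and *Cybrd1* left under at least 1, while 34 stayed under all 3. The opposite pattern, higher at 48 h and lower at 72 h, was met by 76 genes under the same thresholds, while 566 genes were higher and 238 lower at both times.

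**Figure D2:**
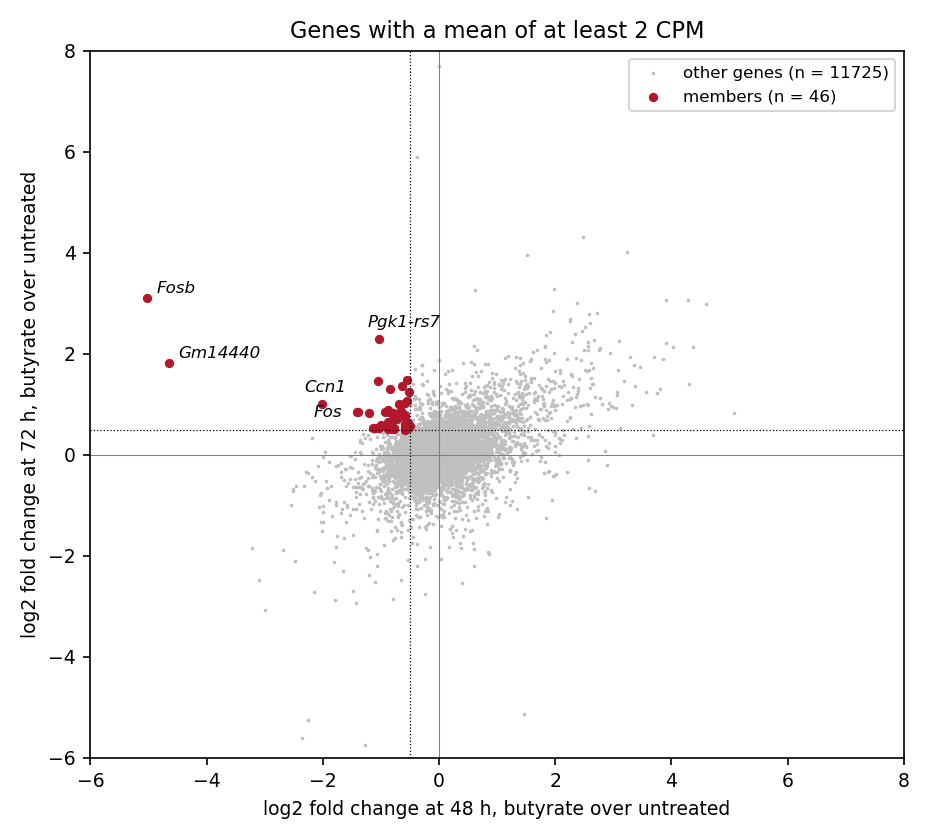
Log2 fold change of butyrate over untreated at 48 h (horizontal axis) and at 72 h (vertical axis) for genes with a mean of at least 2 CPM, with the 46 members in red and dotted lines at the thresholds. *Fosb* (−5.02 and 3.10) and *Gm14440* (−4.64 and 1.82) lie far from the other members, and 8 genes fall outside the axes.

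*Fosb* had the largest difference of all members at both times. Its level was 58.0 CPM in untreated and 1.73 CPM in butyrate colonoids at 48 h, and 3.27 CPM in untreated and 28.4 CPM in butyrate colonoids at 72 h. The underlying counts were 1250, 42, 77 and 590. The untreated library at 48 h and the butyrate library at 72 h were thus high, and the other 2 were low. At 48 h the log2 fold change was −5.02 (interval −5.54 to −4.62), and at 72 h it reached 3.10 (2.77 to 3.48), that is a level 32.5-fold lower and then 8.57-fold higher with butyrate. *Fos*, the founding member of the family, was at 153 CPM in untreated and 57.8 CPM in butyrate colonoids at 48 h, and at 40.6 and 72.6 CPM at 72 h. Its untreated library at 48 h stood above the other 3. Butyrate over untreated gave −1.41 on the log2 scale at 48 h (−1.50 to −1.32), and 0.84 at 72 h (0.72 to 0.96).

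*Ccn1*, formerly *Cyr61*, encodes a secreted matrix-associated protein that is also induced early by growth factors. It was at 17.1 CPM in untreated and 4.17 CPM in butyrate colonoids at 48 h, and at 15.2 and 30.4 CPM at 72 h. Both untreated libraries were close to each other, the butyrate library at 48 h was low and the butyrate library at 72 h was high. The log2 fold change was −2.02 (−2.37 to −1.71) and 1.00 (0.81 to 1.19). *Ccn2*, its relative on the list of regenerative genes, was at 8.90, 8.30, 12.4 and 21.0 CPM in the same order, a log2 difference of −0.10 and 0.76 with butyrate. Of the 14 tested genes of that list *Ccn1* was the 1 member. The other 13 had medians of −0.10 and 0.20, beside −0.02 and 0.05 over all genes tested, with 7 below 0 at 48 h and 8 above 0 at 72 h. None of the 13 had both counting intervals on the members' side. Of all genes tested 8.27% did, and in so short a list the count is near that share. *Clcf1*, a cytokine of the interleukin-6 family, was at 5.89 and 2.77 CPM at 48 h and at 5.43 and 7.89 CPM at 72 h, so that its butyrate library at 48 h stood alone below the others.

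The promoters of *Fosb*, *Fos* and *Ccn1* are shown because these genes had the largest differences at 48 h among members with a mean over 10 CPM, and that of *Ifit1* because it held the interferon motif. The sequences are RefSeq promoters on GRCm38.p6, 5′ to 3′, from 250 bases before the annotated start, with position 0 at the start itself, and matches to the searched motifs are in capitals. *Fosb* lies at chr7:19309996-19310295 (minus strand), *Fos* at chr12:85473640-85473939 (plus strand), *Ccn1* at chr3:145649936-145650235 (minus strand) and *Ifit1* at chr19:34640639-34640938 (plus strand).
Fosb: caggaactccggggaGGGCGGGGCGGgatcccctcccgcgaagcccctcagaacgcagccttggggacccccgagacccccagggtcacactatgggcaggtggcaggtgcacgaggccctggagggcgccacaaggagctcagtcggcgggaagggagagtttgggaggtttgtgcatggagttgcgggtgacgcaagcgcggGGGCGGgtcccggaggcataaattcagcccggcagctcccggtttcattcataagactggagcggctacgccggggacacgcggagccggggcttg
Fos: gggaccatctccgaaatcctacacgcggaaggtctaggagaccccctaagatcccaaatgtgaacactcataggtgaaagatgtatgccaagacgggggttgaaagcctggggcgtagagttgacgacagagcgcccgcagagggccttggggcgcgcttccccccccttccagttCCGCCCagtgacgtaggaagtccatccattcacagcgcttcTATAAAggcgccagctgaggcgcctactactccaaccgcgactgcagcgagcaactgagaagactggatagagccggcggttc
Ccn1: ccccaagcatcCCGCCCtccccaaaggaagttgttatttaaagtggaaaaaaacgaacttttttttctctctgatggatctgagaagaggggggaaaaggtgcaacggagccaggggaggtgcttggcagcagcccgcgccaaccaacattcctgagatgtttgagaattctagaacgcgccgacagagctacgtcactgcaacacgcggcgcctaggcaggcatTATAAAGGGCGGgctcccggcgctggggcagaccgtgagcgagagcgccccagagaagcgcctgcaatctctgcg
Ifit1: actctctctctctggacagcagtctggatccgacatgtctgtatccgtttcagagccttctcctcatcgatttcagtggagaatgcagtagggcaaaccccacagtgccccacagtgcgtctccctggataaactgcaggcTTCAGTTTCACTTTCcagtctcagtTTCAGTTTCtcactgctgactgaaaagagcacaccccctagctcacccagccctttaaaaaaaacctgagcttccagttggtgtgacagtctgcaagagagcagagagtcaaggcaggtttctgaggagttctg
*Fos* held a TATA box (TATAAA) at −33 and a GC box (GGGCGG, here as its reverse complement) at −74. *Ccn1* held a TATA box at −25 that runs directly into a GC box at −19, and another GC box at −239. *Fosb* held GC boxes at −46, −230 and −235, the last 2 overlapping. *Ifit1* held the interferon motif 3 times, at −84, −103 and −109, the last 2 overlapping and all on the reverse strand.

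A promoter was found for 33 of the 46 members, with 46 promoters in all, and both strands were searched. The entries for *Lgr5* and 12 other members were missing. A GC box was in 25 of the 46 (54.3%), against 63.0% of the 11759 promoters of tested genes and 35.7% of all 32851 promoters. A TATA box was in 8 (17.4%, against 7.06% and 13.6%) and a CCAAT box (CCAAT) in 12 (26.1%, against 38.0% and 37.4%). The AP-1 motif (TGANTCA) was in 4 (8.70%, against 5.09% and 7.81%), in *Cybrd1*, *Hdac7*, *Olfr152* and *Six5*. The interferon motif (GAAANNGAA) was in 2 (4.35%, against 6.74% and 8.56%), in *Ifit1* and *Rbms3*, and the TCF/LEF motif (CTTTGAT) was in 2 (4.35%, against 2.48% and 3.73%). The E-box (CACGTG) was in 0 of the 46 and in 9.95% of promoters of tested genes. The CArG box, bound by serum response factor, was added after the values were seen and was in 2 (4.35%, against 1.32% and 1.63%), in *Cited1* and *Kctd15*. A match is a description of the letters in these 300 bases, and several promoters belong to 1 gene.

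The wider list of immediate early genes did not share the pattern as a whole. Of its 27 genes, 23 reached 2 CPM, and 2 of these, *Fos* and *Fosb*, were members. Over the other 21 the median log2 fold change was −0.26 at 48 h and −0.06 at 72 h. At 48 h 15 of the 21 were below 0, and at 72 h 8 were above 0. The medians over all genes tested were −0.02 and 0.05, so values of either sign are common among them. Both counting intervals lay on the members' side in 2 of the 21, *Jun* (−0.21 and 0.32) and *Egr1* (−0.41 and 0.23), where 8.27% of all genes tested met the same criterion, a share near that of the list. *Zfp36*, which promotes decay of unstable mRNAs, was at −0.94 and −0.25, lower at both times. The AP-1 partner *Junb* was at −0.08 and 0.00, and *Fosl2* at −0.36 and 0.04. The summed level of the list was 1810 to 2050 CPM in the 4 libraries.

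**Figure D3:**
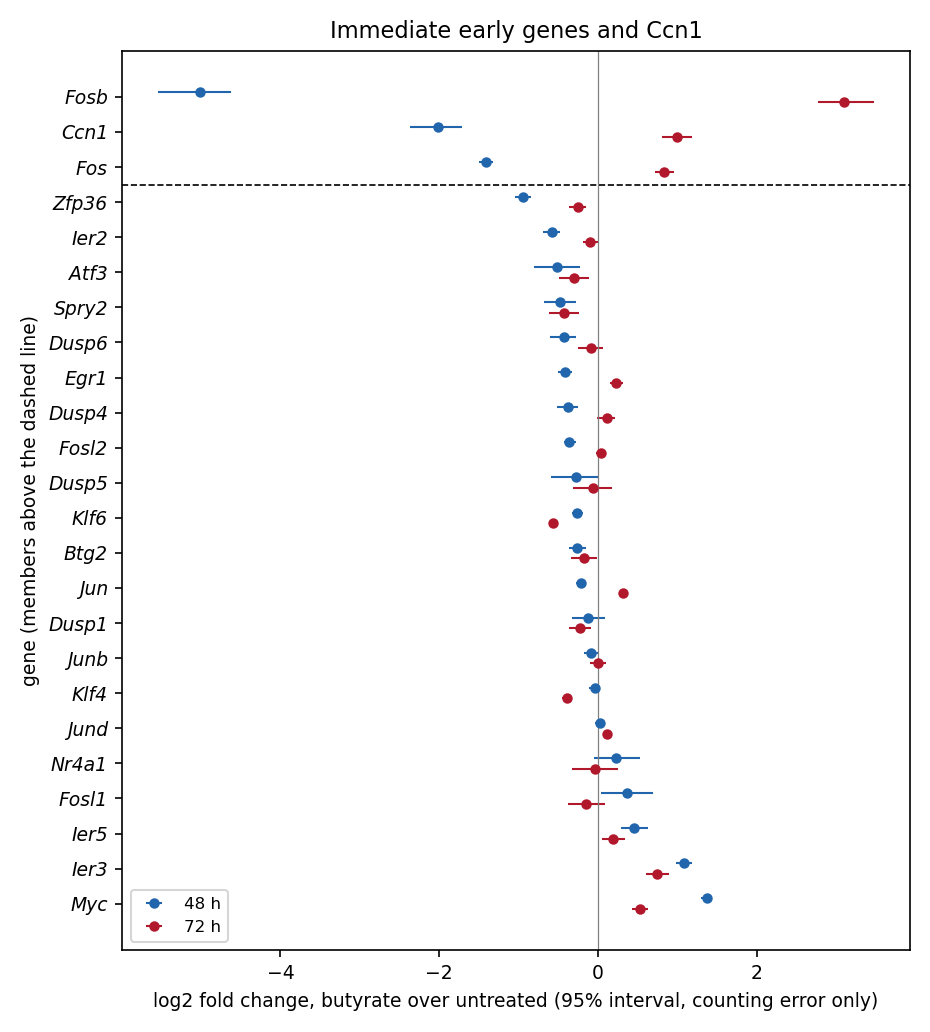
Log2 fold change of butyrate over untreated (horizontal axis) at 48 h (blue) and 72 h (red) for the 23 immediate early genes tested and *Ccn1*, with 95% intervals of counting error. *Fosb*, *Ccn1* and *Fos* lie above the dashed line.

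*Lgr5* was the most abundant member. Its level was 342 CPM in untreated and 179 CPM in butyrate colonoids at 48 h, and 217 CPM in untreated and 388 CPM in butyrate colonoids at 72 h. The butyrate library was the lowest of the 4 at 48 h and the highest at 72 h. Butyrate over untreated gave a log2 value of −0.93 (−0.99 to −0.88) at the first time and 0.84 (0.79 to 0.89) at the second, a level 1.91-fold lower and then 1.79-fold higher. In bulk RNA, fewer cells of a type and less RNA per cell cannot be told apart. *Lgr4*, the more widely expressed receptor of the same family, was named outside the rule as a relative and was at 147, 235, 146 and 173 CPM, with log2 fold changes of 0.68 and 0.24, both above 0.

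Of 20 listed crypt stem cell genes, 19 were tested and *Lgr5* was the 1 member. The 1 below 2 CPM, *Olfm4*, had counts of 16, 2, 13 and 24, with log2 fold changes of −2.58 (−6.33 to −1.08) and 1.00 (0.03 to 2.16), in the direction of the members. Over the other 18 the median log2 fold change was 0.03 at 48 h and 0.45 at 72 h, with 8 below 0 at 48 h and 17 above 0 at 72 h. Both intervals lay on the members' side in 6 of the 18, against 8.27% of all genes tested. The intervals narrow as counts rise, so small differences of abundant genes can meet this criterion, and the 8.27% is not matched for level. *Rnf43*, at 166 to 222 CPM, met it with −0.09 and 0.42. *Smoc2*, a stem cell marker, was at −0.30 and 0.75, *Axin2*, a Wnt feedback gene, at −0.14 and 0.67, and *Rgmb*, a co-receptor for BMPs, at −0.55 and 0.22. Others of the list were higher with butyrate at 48 h, such as *Msi1* (2.36 and 1.91), *Ascl2* (0.20 and 0.53) and *Sox9* (0.17 and −0.10). The summed level of the list was 4310 CPM in untreated and 4200 CPM in butyrate colonoids at 48 h, and 3520 and 4680 CPM at 72 h. That of the 19 colonocyte genes was 4600 and 6980 CPM at 48 h and 5040 and 3900 CPM at 72 h, so it was higher with butyrate at 48 h and lower at 72 h. *Car1* alone was at 925, 2050, 1490 and 839 CPM. Of the 19, 7 were higher by 0.5 or more at 48 h (11.5% of all genes tested were) and 3 lower by that amount. At 72 h 6 were lower by that amount (5.9% of all genes) and 2 higher. Secretory cell lists were lower at 72 h in larger part. Of 17 goblet and deep crypt secretory genes 12 were lower by 0.5 or more at 72 h (5.9% of all genes) and 1 higher, and 7 were lower at 48 h (8.93% of all genes) and 3 higher, with medians of −0.43 and −0.61 and summed levels of 5880, 4860, 7780 and 4530 CPM. Of 19 enteroendocrine genes 12 were lower by that amount and 0 higher at 72 h, and 3 lower and 2 higher at 48 h (medians −0.31 at 48 h and −0.68 at 72 h). Of 6 tuft cell genes 4 were lower and 0 higher at 72 h, and 0 lower and 1 higher at 48 h (medians −0.23 and −0.90). The part of cell composition in the level of *Lgr5* was not tested. Among 23 Wnt target and feedback genes tested, *Lgr5* was again the 1 member, and the other 22 had medians of 0.16 and 0.52, with 20 above 0 at 72 h. *Sp5*, a transcription factor induced by Wnt, was at −0.42 and 0.91, while *Myc* was at 1.37 and 0.53, and *Nkd1*, a Wnt feedback gene, at 0.00 and 1.87. These lists share several genes.

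**Figure D4:**
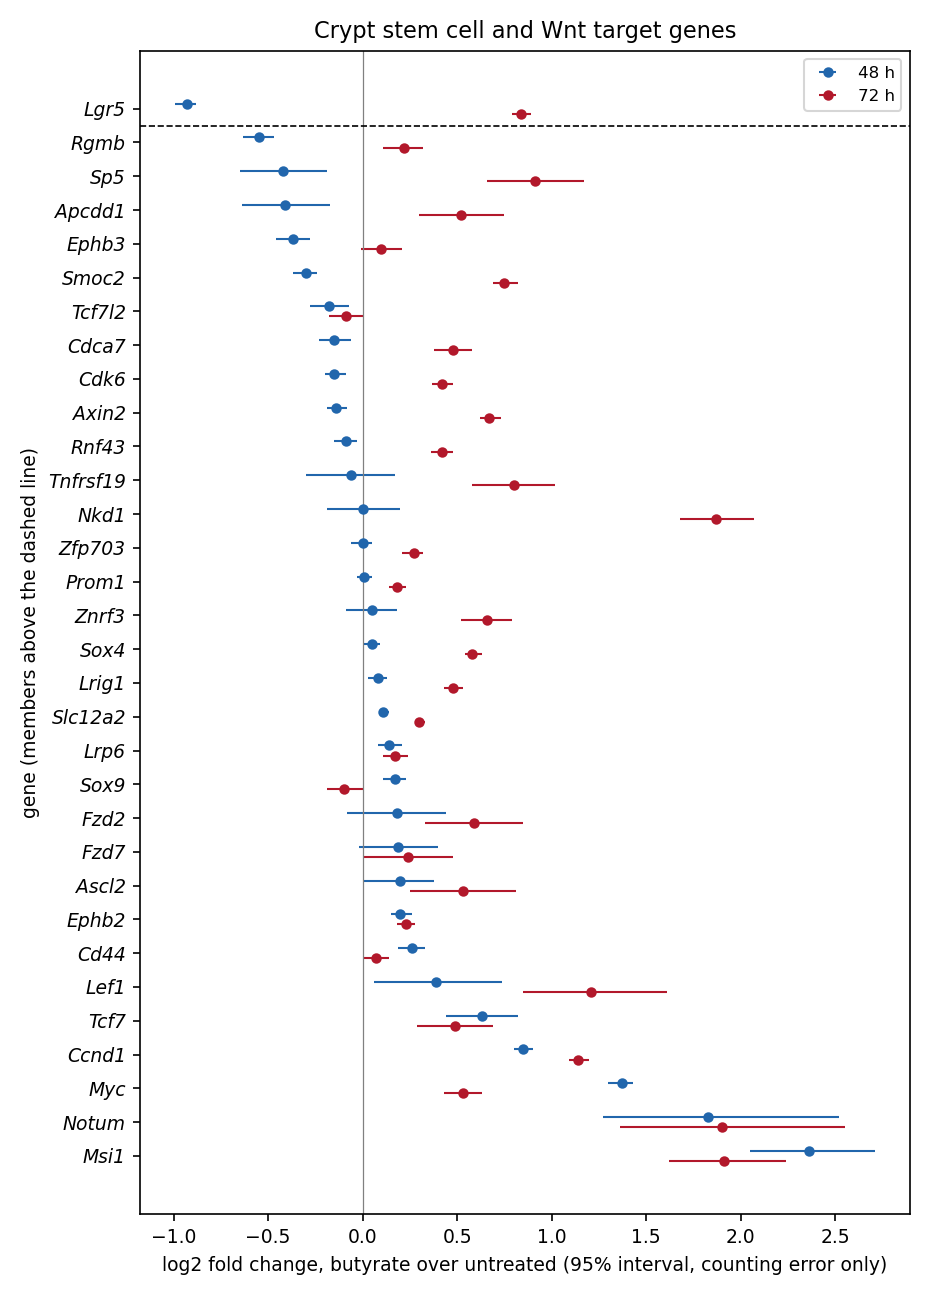
Log2 fold change of butyrate over untreated (horizontal axis) at 48 h (blue) and 72 h (red) for crypt stem cell and Wnt target genes with a mean of at least 2 CPM, with 95% intervals of counting error. *Lgr5*, above the dashed line, has the lowest value at 48 h, and most other genes lie near 0 at 48 h and above 0 at 72 h.

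Members of other receptor and signalling systems had differences nearer the thresholds. *Smo* was at 41.7 CPM in untreated and 28.9 CPM in butyrate colonoids at 48 h, and at 35.6 and 55.0 CPM at 72 h. Its log2 fold change was −0.53 (−0.67 to −0.39) and 0.63 (0.50 to 0.76), with the butyrate libraries lowest and highest. *Ptch1*, the Hedgehog receptor that restrains *Smo* and was named as its relative, was at 37.7, 28.9, 31.3 and 40.8 CPM, with log2 fold changes of −0.38 and 0.38. Other genes of the pathway, named likewise, did not have the pattern at that size. The ligand gene *Ihh* was at −0.01 and −0.32 and the inhibitor *Sufu* at −0.09 and 0.04. The effector *Gli1* had counts of 0, 16, 0 and 0, *Gli3* stayed at or under 3 counts in every library, and *Gli2* and *Hhip* had a count of 0 in all 4, where 3 counts would be 0.124 to 0.144 CPM. *Fzd3*, a receptor for Wnt ligands, was at 13.9, 9.29, 10.6 and 15.1 CPM. *Gpc2*, a heparan sulphate proteoglycan of the cell surface, was at 16.0, 9.25, 7.13 and 12.3 CPM, with log2 fold changes of −0.79 and 0.79 and its highest level in untreated colonoids at 48 h. *Fstl4*, which encodes a secreted follistatin-like protein, was at 12.0, 6.98, 8.19 and 11.8 CPM, nearly the same in the 2 high libraries.

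3 members act in cell division or genome repair and had similar levels. *Aspm*, which organises the spindle poles of dividing cells, was at 26.8 and 15.2 CPM at 48 h and at 21.9 and 31.3 CPM at 72 h, with log2 fold changes of −0.81 (−1.01 to −0.62) and 0.51 (0.35 to 0.68). *Neil3*, a DNA glycosylase, was at 26.3, 18.1, 19.0 and 27.5 CPM, and *Alms1*, a centrosome protein with a transcript of 11163 bases, was at 24.6, 16.6, 17.6 and 26.2 CPM. In all 3 the butyrate library was the lowest at 48 h and the highest at 72 h. None of 18 proliferation genes was a member, where 0.391% of all genes tested were. The medians of the 18 were 0.01 at 48 h and 0.39 at 72 h. *Cenpe*, a kinetochore motor, was nearest to the members at −0.49 and 0.62, and *Mki67* was at 0.06 and 0.51. Both intervals lay on the members' side in 6 of the 18 proliferation genes (8.27% of all genes tested, not matched for level). Their summed level was 2320 and 2360 CPM at 48 h and 2120 and 2820 CPM at 72 h, so it too was highest in butyrate colonoids at 72 h, and its part in the members' values was not tested.

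Several members regulate transcription or RNA. *Hdac7*, a class IIa histone deacetylase, was at 24.2 CPM in untreated and 14.2 CPM in butyrate colonoids at 48 h, and at 21.9 and 31.4 CPM at 72 h, with log2 fold changes of −0.77 (−0.97 to −0.57) and 0.52 (0.35 to 0.69). *Hdac4* and *Hdac5*, of the same class and named as its relatives, were at −0.55 and −0.03 and at −0.07 and −0.13, so neither was above 0 at 72 h. *Hif3a*, a hypoxia-inducible factor subunit that can restrain the others, was at 29.0, 19.4, 18.0 and 25.9 CPM. None of the 27 genes of the hypoxia and glycolysis list was a member (0.391% of all genes tested were), with list medians of 0.21 and 0.33. *Pou6f1*, a POU-homeobox factor, was at 15.7, 8.96, 10.2 and 18.2 CPM, with log2 fold changes of −0.80 and 0.83. The homeobox gene *Six5* (5.56, 3.68, 4.71 and 6.78 CPM), *Msantd3* (8.76, 5.87, 7.68 and 11.6 CPM) and *Kctd15* (4.59, 2.93, 1.74 and 4.57 CPM) were less abundant. *Cited1*, a co-regulator that binds CBP and p300, was at 3.34, 1.61, 1.78 and 2.60 CPM, and its interval at 72 h (−0.06 to 1.16) included 0. Among RNA-binding proteins, the splicing regulator *Mbnl3* was at 9.69, 6.49, 9.37 and 19.2 CPM, with its butyrate library at 72 h far above the other 3, whereas *Rbms3* was at 5.98, 3.76, 3.35 and 6.11 CPM.

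Transport, metabolic and immune genes among the members were all under 12 CPM in every library. *Gnpda2*, which turns glucosamine phosphate back into fructose phosphate, was at 11.0, 5.95, 8.06 and 11.5 CPM, and shares 1022 exon bases with *Guf1* on the opposite strand. *Slc27a2*, a fatty acid transporter and acyl-CoA synthetase, was at 5.89, 3.92, 4.20 and 7.31 CPM, and the nucleoside transporter *Slc28a2* at 4.82, 2.60, 3.01 and 4.62 CPM. *Clps*, which encodes colipase, the cofactor of pancreatic lipase, was at 4.50, 2.15, 2.88 and 8.03 CPM, with log2 fold changes of −1.05 (−1.58 to −0.57) and 1.46 (1.06 to 1.91). *Cybrd1*, an iron-regulated ferric reductase, was at 5.33 CPM in untreated colonoids at 48 h and between 1.91 and 2.79 CPM in the other 3, and its interval at 72 h (−0.04 to 1.14) included 0. *Vsig2*, a membrane protein of the immunoglobulin family, was at 8.72, 4.75, 4.54 and 8.47 CPM, so that the high pair and the low pair were each nearly equal.

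*Ifit1*, an interferon-induced protein that binds foreign RNA, was at 3.66, 1.98, 2.08 and 3.27 CPM, with log2 fold changes of −0.87 (−1.43 to −0.35) and 0.64 (0.10 to 1.21). *Ifi47*, an interferon-induced GTPase, was at 5.19, 3.43, 4.16 and 5.92 CPM. The interferon-induced list held 30 tested genes with *Ifit1* as its 1 member, and the other 29 had medians of 0.08 and 0.05. *Psmb8*, a subunit of the immunoproteasome, was at 3.36 and 1.77 and *Bst2*, an antiviral membrane protein, at 1.37 and 1.35, both higher at both times, and *Ifit1bl1* was at −1.76 and −1.61, lower at both times. Both intervals lay on the members' side in 1 of the 29, *Stat2* (−0.16 and 0.20), against 8.27% of all genes tested.

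The remaining named members have varied roles. *Rims2*, which acts in exocytosis, was at 7.60, 4.75, 7.04 and 12.4 CPM, and *Nefh*, the heavy neurofilament chain, at 2.83, 1.20, 1.53 and 2.74 CPM. *Limch1*, a regulator of myosin, was at 3.34, 1.65, 2.12 and 3.22 CPM, and *Klhdc8b*, a kelch-repeat protein, at 5.38, 3.22, 5.00 and 8.18 CPM. *Dennd1c*, which activates a Rab GTPase of endosomes, was at 5.29, 3.59, 2.42 and 6.83 CPM. *Olfr152*, of the olfactory receptor family, was at 1.76, 1.07, 1.82 and 3.70 CPM, and its interval at 48 h (−1.49 to 0.04) included 0. *Mtcp1* was at 5.19, 3.22, 2.50 and 4.47 CPM and shares 570 exon bases with *Cmc4* on the same strand.

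Pseudogenes and genes with close copies made up much of the remainder. GENCODE lists 5 members (10.9%) as pseudogenes, against 1.95% of the tested genes, and reads of such genes can be shared between copies by the pseudoalignment. *Pgk1-rs7*, a copy of the glycolytic gene *Pgk1*, was at 4.27, 2.07, 1.65 and 8.27 CPM, with log2 fold changes of −1.03 (−1.57 to −0.53) and 2.29 (1.81 to 2.86). *Pgk1* itself was at 560, 696, 426 and 630 CPM, with log2 fold changes of 0.31 and 0.56, so the copy and its source differed in sign at 48 h, and the values of the copy are uncertain. *Gm14440*, on chromosome 2, rested on counts of 48, 1, 41 and 130. At 48 h its log2 fold change was −4.64, with a wide interval of −11.08 to −3.20 on that single count, and at 72 h 1.82 (1.33 to 2.39). It was the 1 member with fewer than 10 counts in a library, and the next lowest count of a member was 26. *Gm6741* was at 3.43, 1.28, 1.87 and 3.42 CPM, and *BC005561* at 5.98, 3.30, 4.67 and 11.5 CPM. The other 4 predicted genes among the members lay between 1.78 and 10.8 CPM. By symbol, 6 of 450 predicted genes were members (1.33%, against 0.391% of all genes tested), as were 2 of 375 zinc finger genes (0.533%) and 2 of 223 solute carrier genes (0.897%). The zinc finger genes were *Zfp457* (2.97, 1.65, 3.35 and 5.19 CPM) and *Zfp712* (4.08, 2.23, 1.23 and 2.26 CPM), both on chromosome 13.

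The rule leaves the untreated library at 48 h or the butyrate library at 72 h as the highest of a member, and 1 of the other 2 as the lowest, so that these counts describe how the members divide and have no counterpart over all genes. In 28 members the butyrate library at 72 h was the highest of the 4, and in 18 it was the untreated library at 48 h. The lowest was the butyrate library at 48 h in 31 members and the untreated library at 72 h in 15. The combination of lowest in butyrate at 48 h and highest in butyrate at 72 h was the most frequent, with 23 members, among them *Lgr5*, *Smo*, *Ccn1*, *Aspm* and *Hdac7*. The reverse combination, highest in untreated at 48 h and lowest in untreated at 72 h, held for 10, among them *Fos*, *Hif3a*, *Gpc2* and *Cybrd1*. The summed level of all members was 972.8 CPM in untreated and 490.5 CPM in butyrate colonoids at 48 h, and 559.5 and 986.7 CPM at 72 h. Without *Lgr5*, *Fos* and *Fosb* it was 419.3, 251.6, 298.9 and 497.6 CPM.

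Within each treatment, the same counts give the change between the times. The rule sets the difference of the 2 fold changes to 1 or more on the log2 scale, so every member had to be lower at 72 h in untreated colonoids, higher at 72 h in butyrate colonoids, or both, by 0.5 or more. In untreated colonoids 26 members (56.5%) were lower at 72 h than at 48 h by that amount, as were 6.34% of all genes tested. In butyrate colonoids 38 members (82.6%) were higher at 72 h by that amount, as were 8.23% of all genes. Both held for 18 members, the difference in butyrate alone for 20 and that in untreated alone for 8. The median log2 change was −0.62 in untreated and 0.90 in butyrate colonoids, beside −0.08 and −0.04 over all genes, and the counting interval lay below 0 in untreated colonoids for 32 members and above 0 in butyrate colonoids for 42. These shares are set in part by the rule and carry no test.

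*Fosb* was at −4.13 in untreated and 3.99 in butyrate colonoids, *Pgk1-rs7* at −1.34 and 1.98 and *Clps* at −0.63 and 1.88, all with both differences. *Lgr5* also had both, at −0.66 and 1.11. Among members with the difference in butyrate alone, *Gm14440* was at −0.35 and 6.11, *Ccn1* at −0.17 and 2.85 and *BC005561* at −0.36 and 1.79. Among those with the difference in untreated colonoids alone, *Fos* was at −1.91 and 0.33, *Zfp712* at −1.69 and 0.02 and *Cybrd1* at −1.46 and 0.22. *Fos* and *Fosb*, of 1 family, thus lay in different classes, since *Fos* in butyrate colonoids stayed between 57.8 and 72.6 CPM while *Fosb* went from 1.73 to 28.4 CPM.

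**Figure D5:**
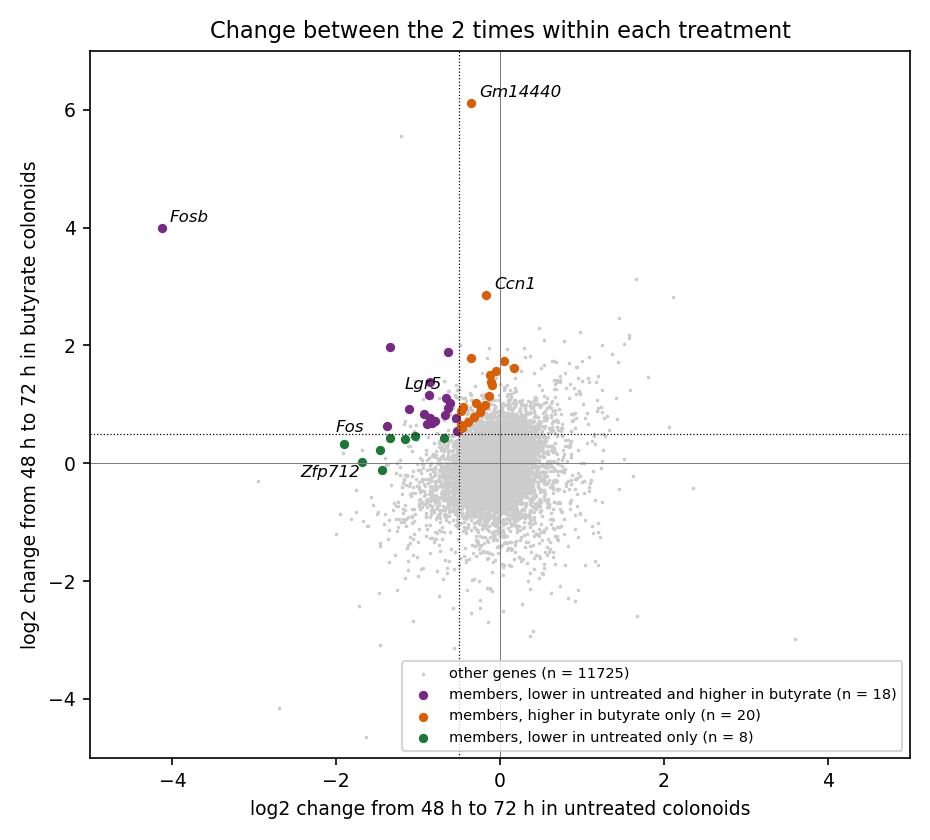
Log2 change from 48 h to 72 h in untreated colonoids (horizontal axis) and in butyrate colonoids (vertical axis) for genes with a mean of at least 2 CPM, with members coloured by class and dotted lines at −0.5 and 0.5. *Fos* and *Zfp712* lie far to the left near 0 on the vertical axis, *Ccn1* and *Gm14440* lie high near 0 on the horizontal axis, and *Fosb* has both, while 12 genes fall outside the axes.

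Set across time, the 2 high libraries were close to each other for most members. The butyrate library at 72 h was within 0.5 on the log2 scale of the untreated library at 48 h in 31 members (67.4%, against 82.9% of all genes tested), with a median difference of 0.10. The untreated library at 72 h was within 0.5 of the butyrate library at 48 h in 28 members (60.9%, against 73.6% of all genes), with a median difference of 0.22. The shares were thus lower among members than among all genes, beside their lower level.

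Transcript length and GC content, which the rule did not use, were close to those of all genes. The share of pseudogenes given above was higher among members, on 5 genes, and was not tested. The shares of promoter motifs given above rest mostly on few matches, with several promoters for some genes, and were not tested either. The longest transcript had a median of 3466 bases in members (quartiles 2041 and 4798) and 3414 bases in the 11759 tested genes with a transcript. The GC content of that transcript had a median of 49.44% in members and 49.66% in all. Transcript length went with both fold changes over all tested genes, with medians of 0.09 at 48 h and 0.03 at 72 h in the shortest of 5 classes (up to 1977 bases) and −0.12 and 0.10 in the longest (from 5293 bases). Members made up 0.467%, 0.297%, 0.382%, 0.426% and 0.383% of the 5 classes from the shortest to the longest, with no steady order, and the part of length in their values was not tested. By position, 6 members lay on chromosome 2, where 8.03% of tested genes lie, 5 on chromosome 7 (7.81% of tested genes), 4 on chromosome 5 (6.38%) and 4 on chromosome X (2.90%), and every other chromosome held 3 or fewer.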

How the data were processed

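Bulk RNA-seq of mouse colonoids was analysed, with 1 library for each of untreated and butyrate-treated cultures at 48 h and 72 h. The deposited values are counts per gene in whole numbers, which come from kallisto 0.44.0 pseudoalignment summed to genes with tximport, per the submitters' processing notes and the paper's methods, with GRCm38.p6 as the build. They are thus rounded estimates, and reads of near-identical genes are shared by estimation. Counts were divided by the library total (20790225 to 24207840) to give CPM, and 0.05 CPM was added before log2. Names turned into dates (26) were dropped, among which 2 names occurred more than once. No p-value was computed, since no group has replicates. Intervals are exact 95% Clopper-Pearson intervals on pairs of counts, and a floor of 3 counts was used. Both cover counting error only, as the reads carried no molecular identifiers and may repeat a molecule. Positions and transcripts came from GENCODE M21 (GRCm38) by symbol, and promoters from RefSeq (GRCm38.p6), leaving out chromosome 18.

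The members and the gene lists were chosen with earlier results of these data known. Named were the 15 members with the largest smaller-of-both change, the 10 most abundant, members of any list, those nearest the thresholds, the 3 of each time class with the largest change and up to 4 other genes per list. Other members are named to account for all of them, and relatives such as *Ptch1*, *Lgr4*, *Pgk1* and *Hdac4* fall outside this rule. Size factors were taken from DESeq2 1.42.0 and edgeR 4.0.16 (R 4.3.3), and all else was computed in Python 3.11.15 (pandas 2.3.3, scipy 1.17.1). The selection was tested on simulated data. Alternatives were other scalings, pseudocounts, filters and thresholds, thinning to the smallest total and, chosen after seeing the data, protein-coding genes only.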

Additional observations from a re-analysis of the deposited data

Results flagged for a closer look

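The 46 members were lower with butyrate at 48 h and higher at 72 h, a difference in direction between the times that was not tested. In 3 gene lists, the median over genes other than members also differed in sign between the times by more than 0.1 on each side, which was not tested either. The 19 genes tested of the chromatin and long nuclear RNA list had medians of −0.32 (48 h) and 0.15 (72 h). Both counting intervals lay on the members' side in 10 of them, for example *Kmt2a* (−0.32 and 0.27) and *Atrx* (−0.12 and 0.63). The share over all genes tested, 8.27%, is not matched for level. The 373 zinc finger genes other than *Zfp457* and *Zfp712* had medians of −0.11 and 0.12. For the 19 colonocyte genes the medians had the opposite signs, 0.18 and −0.29, with 5 of the 19 below 0 at 48 h and 5 above 0 at 72 h. Over all genes tested the medians were −0.02 and 0.05.

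Of the rows left out because a date stands in place of the gene name, 1 met the thresholds of the members, with 3.29 CPM in untreated and 1.86 CPM in butyrate colonoids at 48 h, and 1.74 and 3.66 CPM at 72 h. Its log2 fold change was −0.81 at 48 h and 1.05 at 72 h, and its gene was not named.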

How the results depend on the processing

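No paired analysis was possible because there was a single library per group, and for the same reason no library could be left out in turn. The number of members, 46 as reported, was 36 with DESeq2 size factors, 38 with TMM factors and 40 with totals without mitochondrial-genome genes, of which 34, 34 and 35 were among the reported members. It was 37 with a pseudocount of 0.5 CPM and 27 with 1 CPM, and a median of 47 when thinned to the smallest total (40 to 53 over 100 draws). The filter moved it most, to 644 with no filter beyond 1 count, 150 with the filter of the study (more than 10 counts in at least 2 libraries), 25 at a mean of 5 CPM and 14 at a mean of 10 CPM. In that order these were 3.04% of 21217 genes, 1.07% of 13960, 0.236% of 10601 and 0.149% of 9408. The share thus fell as genes of low count were left out. It was 97, 14 and 4 at log2 thresholds of 0.4, 0.75 and 1. The number with both counting intervals on the side of the rule, 42 as reported, was 27 with a pseudocount of 1 CPM, 72 with no filter, 25 and 14 at means of 5 and 10 CPM, and 89, 14 and 4 at those thresholds. The 4 median changes over the reported members stayed within the median counting bounds under the alternatives run for them, which says little, since the members were chosen on these values and a scaling shifts all genes alike. Of 552 single-gene values under alternatives 6 moved outside their counting interval, among them *Gm14440* at 48 h, from −4.64 to −1.63 with a pseudocount of 1 CPM. No scaling moved the median of all genes by more than 0.08. The low level of most members limits how firmly they can be told from genes just outside the thresholds.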
